A study of Homo sapiens with 18 samples.

Results

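SKAP1 and UNC5C are 2 genes of the 58051 in the deposited counts, and they were picked by name because their RNA moved strongly and in opposite directions when PPP2R3B was induced in the melanoma cell line SKMEL30. In SKMEL30 the level of SKAP1 RNA fell to 43.5% of that in uninduced cells at 6 hours and to 18% at 18 hours, while that of UNC5C was 2.54-fold and 2.89-fold that in uninduced cells. In SKMEL2, a second melanoma line with the same vector, both genes were at a much lower level, and neither passed the test for a change with induction. SKAP1 had only 0 to 6 counts per library there, and its libraries at 18 hours all lay below the uninduced ones. Since the choice of the genes rests on their values in SKMEL30, those values are given as a description and without a test. So are their levels in SKMEL2 beside those in SKMEL30. For the 2 genes tests are kept to changes within SKMEL2, and other genes were tested in both lines.

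The series compares cells before and after induction of PPP2R3B, which encodes PR70, a regulatory subunit of the phosphatase PP2A. Both lines are melanoma cells with a variant at codon 61 of NRAS, transduced with the lentiviral tet-ON vector pTRIPZ-PPP2R3B, which carries a Myc-tagged open reading frame, and selected as stable lines with puromycin. Each line has 3 libraries from uninduced cells, 3 from cells given doxycycline for 6 hours and 3 from cells given it for 18 hours, which makes 18 libraries in 6 groups. The labels give the later time as 18 hours, whereas the study's text gives 16 hours, and the labels are followed here. Cells that lack the vector but received doxycycline are not among the libraries, so an effect of doxycycline itself and one of PPP2R3B cannot be told apart. The labels do not say whether replicates are separate cultures, so p-values measure only the spread between these libraries.

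Total counts ran from 13402645 to 22383470 per library. PPP2R3B itself was at 20.9 ± 1.35 CPM (counts scaled to library size per 1e6, SD, n = 3) in uninduced SKMEL30 cells, and induction raised it to 541 ± 22.8 CPM after 6 hours and 616 ± 1.76 CPM after 18 hours (SD, n = 3 each). In SKMEL2 it was at 20.7 ± 3.6 CPM before, 425 ± 86.3 CPM after 6 hours and 474 ± 43.9 CPM after 18 hours of induction (SD, n = 3 each), so the induced gene matched the labels in both lines. Reads of the vector and of the cells' own gene are counted together. The 8 markers of the melanocyte lineage examined, MITF, SOX10, PMEL, MLANA, TYR, TYRP1, DCT and S100B, all had at least 10 counts in every library of both lines. Their summed level lay between 4220 and 4920 CPM in SKMEL2 and between 8800 and 9320 CPM in SKMEL30.

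SKAP1, also named SKAP55, is an adaptor protein with a pleckstrin homology domain and an SH3 domain that is best known from T cells. There it binds the adaptor FYB1 (also named ADAP), and the complex links the T cell receptor to the small GTPase RAP1 and so to the activation of integrins from inside the cell. UNC5C is a transmembrane receptor for netrins, the secreted guidance cues of growing axons, and it mediates repulsion from them. UNC5 receptors are also dependence receptors: without their ligand their intracellular death domain can signal apoptosis, in which the kinase DAPK1 takes part. For the related receptor UNC5B, that step is known to involve PP2A with the scaffold subunit encoded by PPP2R1B.

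The start of UNC5C is shown because UNC5C RNA was higher after induction in SKMEL30. The 250 bases before its RefSeq start lie on the minus strand at chr4:95548974-95549223 of GRCh38.p14, and are printed 5′ to 3′ with the matches to 2 short motifs in capitals.
UNC5C: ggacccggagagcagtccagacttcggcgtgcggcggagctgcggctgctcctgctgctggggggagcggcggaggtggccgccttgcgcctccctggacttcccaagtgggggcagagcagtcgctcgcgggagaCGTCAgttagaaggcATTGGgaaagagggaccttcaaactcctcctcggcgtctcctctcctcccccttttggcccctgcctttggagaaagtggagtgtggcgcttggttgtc
Of these bases 65.6% are G or C, against a median of 58.0% over 35116 RefSeq promoter windows of the same length, and the window holds 17 CpG pairs against a median of 11. The first run of capitals is the other strand of TGACG, the shorter form of the cAMP response element, which starts 114 bases before the start and is found in 21.2% of the windows. The second is the other strand of the CCAAT box, 99 bases before the start, found in 32.0% of them. No match on either strand was found to CACGTG (an E-box, in 6.34% of windows), CATGTG (9.42%), the GC box GGGCGG (42.6%), the full element TGACGTCA (1.65%), the AP-1 site TGANTCA (6.57%) or TATAAA (10.7%). The noncoding gene UNC5C-AS1 also has its RefSeq boundary within this window, 175 bases from that of UNC5C.

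SKAP1 (ENSG00000141293) lies at chr17:48133442-48445061 of GRCh38.p14. In SKMEL30 its level in the 3 uninduced libraries was 9.81, 11.6 and 8.74 CPM, from 174, 212 and 138 counts. After 6 hours of induction it was 4.45, 4.47 and 4.2 CPM, from 57, 89 and 90 counts. After 18 hours it was 1.69, 1.6 and 2.14 CPM, from 31, 24 and 39 counts. The groups thus formed 3 steps that did not overlap: every library at 6 hours lay at least 4.27 CPM below the lowest uninduced library, and every library at 18 hours lay below every library at 6 hours. The means were 10 ± 1.43 CPM before induction, 4.37 ± 0.145 CPM after 6 hours and 1.81 ± 0.291 CPM after 18 hours (SD, n = 3 each).

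**Figure D1:**
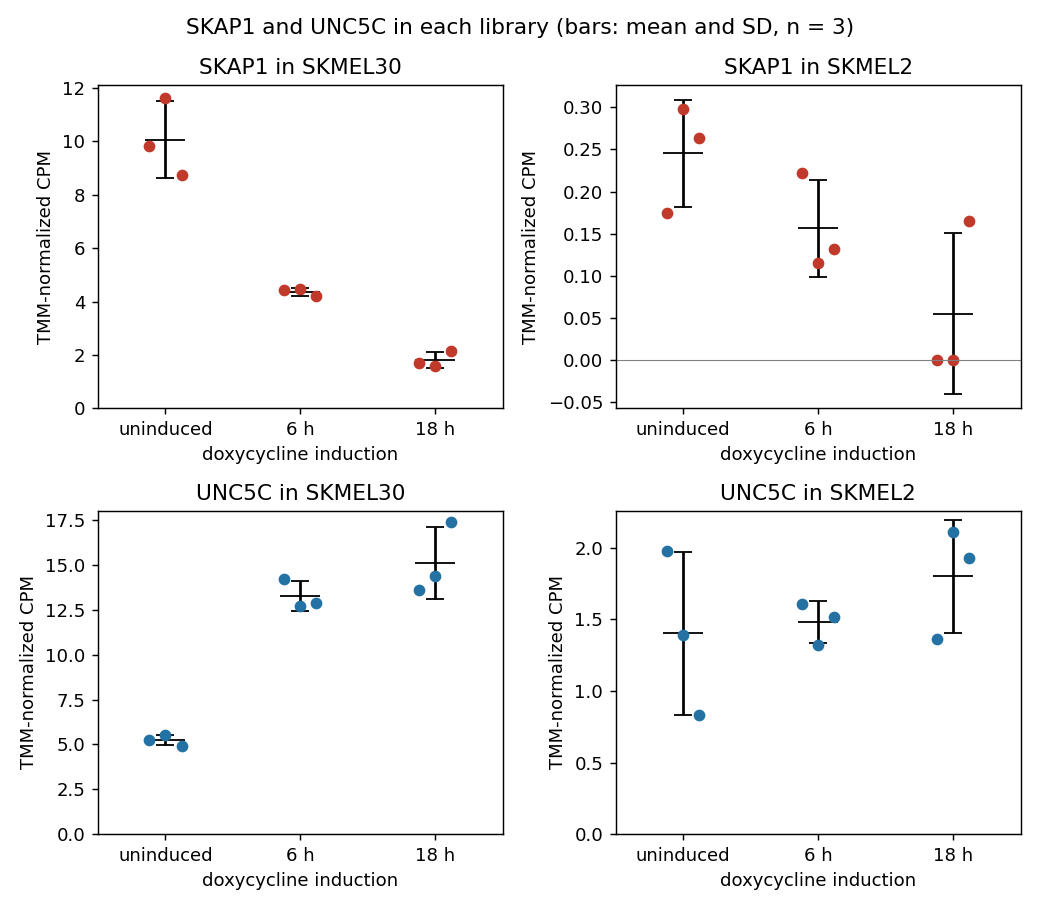
Level of SKAP1 (red) and UNC5C (blue) in TMM-normalized CPM in each of the 18 libraries, with the mean and SD of each group of 3; each panel has its own linear scale. SKAP1 in SKMEL30 steps down from a mean of 10 to 4.37 and 1.81 CPM, UNC5C in SKMEL30 steps up from 5.23 to 13.3 and 15.1 CPM, and in SKMEL2 both are low and most groups overlap.

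For SKAP1 in SKMEL30 the log2 fold change, from edgeR with the 9 libraries of the line, was -1.20 (SE 0.13) at 6 hours and -2.46 (SE 0.15) at 18 hours. Between 6 and 18 hours it changed by a further -1.26 (SE 0.17) on the log2 scale, about the size of the change in the first 6 hours. Of the 15026 genes tested in the line, 0.113% were called lower at 6 hours and 0.12% at 18 hours, at a Benjamini-Hochberg adjusted p under 0.05, and SKAP1 was among them both times, as its choice requires. Its log2 fold change was the second lowest of the 17 genes called lower at 6 hours and the lowest of the 18 at 18 hours, and among all genes tested it ranked 31 and 5 from the bottom. Between 18 and 6 hours 3 genes, or 0.02% of those tested, were called, all lower. They were the G1 cyclin CCND1, the membrane repair protein MYOF and SKAP1, whose choice used this time course, so that its place among them is no result.

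UNC5C (ENSG00000182168) lies at chr4:95162504-95548973 of GRCh38.p14. In SKMEL30 its level in the 3 uninduced libraries was 5.24, 5.51 and 4.94 CPM, from 93, 101 and 78 counts. After 6 hours it was 14.2, 12.7 and 12.9 CPM, from 182, 254 and 277 counts. After 18 hours it was 13.6, 14.4 and 17.4 CPM, from 250, 215 and 317 counts. All induced libraries lay above all uninduced ones, by at least 7.23 CPM at 6 hours and 8.09 CPM at 18 hours, whereas the libraries of the 2 times overlapped. The means were 5.23 ± 0.287 CPM before induction, 13.3 ± 0.786 CPM after 6 hours and 15.1 ± 2.02 CPM after 18 hours (SD, n = 3 each).
For UNC5C in SKMEL30 edgeR gave a log2 fold change of 1.33 (SE 0.11) at 6 hours and 1.53 (SE 0.11) at 18 hours. From 6 to 18 hours it differed by 0.20 (SE 0.09) on the log2 scale, so that in these libraries most of its rise was present at 6 hours. SKAP1 had fallen by 1.20 at 6 hours and by 2.46 at 18 hours. This difference in the shape of the time courses is a description and was not tested, since the choice of the genes used these values. Of the genes tested, 0.0932% were called higher at 6 hours and 0.173% at 18 hours. Among them UNC5C had the second highest log2 fold change of 14 genes at 6 hours, after PPP2R3B, and the fourth of 26 at 18 hours. Among all genes tested it ranked 45 and 32 from the top.

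**Figure D2:**
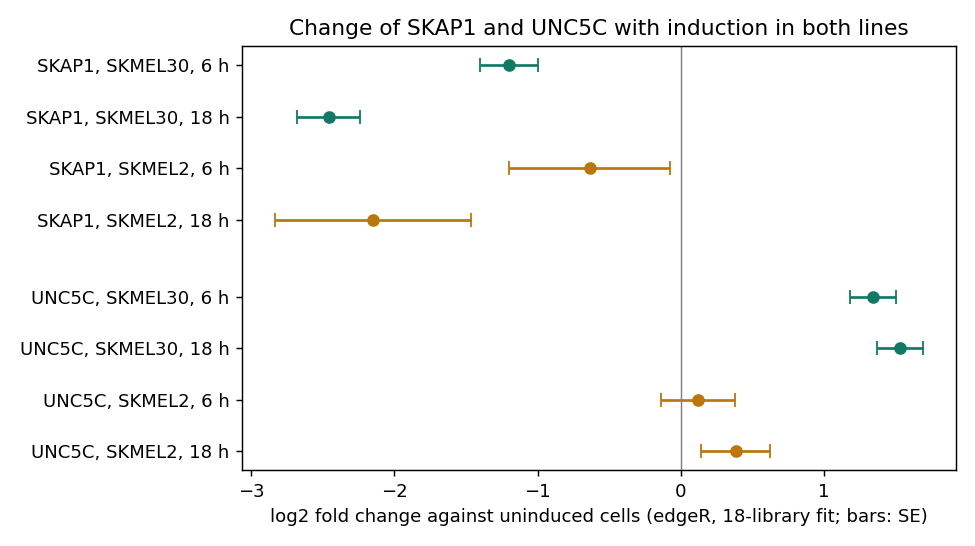
Log2 fold change against uninduced cells of the same line at 6 and 18 hours, from edgeR's fit of all 18 libraries (points, with bars of 1 SE), in SKMEL30 (green) and SKMEL2 (orange). UNC5C is at 1.34 and 1.53 in SKMEL30 and at 0.12 and 0.38 in SKMEL2, while SKAP1 is below 0 in both lines. The SKAP1 bars in SKMEL2, of 0.56 and 0.69, rest on 0 to 6 counts per library and may be too short.

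In SKMEL2, whose libraries are not part of the SKMEL30 contrast, UNC5C was at 1.98, 1.39 and 0.836 CPM in the 3 uninduced libraries, from 34, 28 and 19 counts. At 6 hours it was at 1.61, 1.32 and 1.52 CPM, from 29, 23 and 23 counts, and at 18 hours at 1.36, 2.11 and 1.93 CPM, from 31, 38 and 35 counts. The uninduced libraries spread wider than the induced ones and all 3 groups overlapped. The log2 fold change was 0.11 at 6 hours (SE 0.32, 95% interval -0.58 to 0.80, adjusted p = 0.99 by the quasi-likelihood F-test of edgeR) and 0.37 after 18 hours (SE 0.31, 95% interval -0.30 to 1.04, adjusted p = 0.987). In this line 0.0124% of 16120 genes were called at either time. The 6 induced libraries, at 1.64 ± 0.317 CPM (SD, n = 6), differed from the 3 uninduced ones, at 1.40 ± 0.572 CPM (SD, n = 3), by less than an exact two-sided permutation test can separate (p = 0.417, or 0.417 adjusted over the 2 genes). The values in SKMEL30 were 1.33 and 1.53, but they chose the gene and have an error of their own. The intervals are therefore no test of a difference between the lines. In the fit of all 18 libraries the log2 fold change in SKMEL2 was lower than that in SKMEL30 by 1.22 (SE 0.31) at 6 hours and by 1.15 (SE 0.29) at 18 hours, values given without a test because the SKMEL30 change chose the gene.

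SKAP1 was close to the limit of detection in SKMEL2. The uninduced libraries held 3, 6 and 6 counts, those at 6 hours 4, 2 and 2 counts, and those at 18 hours 0, 0 and 3 counts. In CPM these were 0.175, 0.298 and 0.264 in uninduced cells, 0.222, 0.115 and 0.132 at 6 hours, and 0, 0 and 0.165 at 18 hours. The libraries at 18 hours all lay below the uninduced ones, and those at 6 hours overlapped both other groups. A count of 0 still allows a level of up to 3 counts, so the gene cannot be called absent.
The gene did not pass the filter on low counts in the fit of the 9 SKMEL2 libraries and was tested there by an exact permutation test. The 6 induced libraries were at 0.106 ± 0.0896 CPM (SD, n = 6) and the 3 uninduced ones at 0.246 ± 0.0638 CPM (SD, n = 3), and 5 of 6 induced libraries lay below the lowest uninduced one (exact two-sided p = 0.0714, or 0.143 adjusted over the 2 genes, where the smallest p that 84 splits can give is 0.0119). With the counts of a group summed, the ratio to uninduced cells was 0.632 at 6 hours, from 8 against 15 counts (exact 95% interval 0.232 to 1.59), and 0.204 at 18 hours, from 3 against 15 counts (exact 95% interval 0.0378 to 0.72). These intervals cover counting error only. In the fit of all 18 libraries, in which SKAP1 passed the filter through its level in SKMEL30, SKAP1 in SKMEL2 had a log2 fold change of -0.64 (SE 0.56) after 6 hours and -2.15 (SE 0.69) after 18 hours, given without a test for that reason. Both SE in SKMEL2 are taken from F and may be too small at 0 to 6 counts per library. The values in SKMEL30 from this fit were -1.20 (SE 0.20) and -2.46 (SE 0.22). At these counts a change in SKMEL2 of the size seen in SKMEL30 was not distinguishable from none at 6 hours.

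Both genes were at a lower level in SKMEL2 before induction. Uninduced SKMEL2 cells held 0.246 ± 0.0638 CPM of SKAP1 and uninduced SKMEL30 cells 10 ± 1.43 CPM (SD, n = 3 each), a log2 difference of -5.29 (SE 0.30), which is given without a test because SKAP1 passed the filter of this fit through SKMEL30. For UNC5C the levels were 1.40 ± 0.572 CPM and 5.23 ± 0.287 CPM (SD, n = 3 each), a log2 difference of -1.94 (SE 0.21). The uninduced lines differ in most genes, with 75.9% of 17133 genes called and 35.8% called lower and 40.1% called higher in SKMEL2, so that a difference in level is not particular to these genes. This comparison shares the uninduced SKMEL30 libraries with the contrast that chose the genes, so the UNC5C difference is given without a test too.
Ordered by their means, the groups ran for SKAP1 from uninduced SKMEL30 cells down to 6 and 18 hours in SKMEL30, and then to uninduced SKMEL2 cells, 6 hours and 18 hours in SKMEL2, so that the lowest SKMEL30 group, at 1.81 ± 0.291 CPM, still lay above the highest SKMEL2 group. For UNC5C the order was SKMEL30 at 18 hours, SKMEL30 at 6 hours, uninduced SKMEL30, and then SKMEL2 at 18 hours, at 6 hours and uninduced. The neighbours in these orders that overlapped were the SKMEL2 groups for UNC5C, the induced SKMEL30 groups for UNC5C, and for SKAP1 the SKMEL2 groups that stand next to each other.

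Since SKAP1 is best known from T cells, leukocyte markers were read in the same libraries. In SKMEL30, CD3D, CD3E, CD3G and CD2 had 0 counts in every library, and 1 of the 8 leukocyte markers, the kinase ZAP70, had at least 10 counts in every library. ZAP70 was at 2.39 ± 0.393 CPM before induction, at 2.71 ± 0.215 CPM after 6 hours and at 2.39 ± 0.376 CPM after 18 hours (SD, n = 3 each), with no call at either time (adjusted p = 0.913 and 0.992 from edgeR). The summed level of the 8 markers in SKMEL30 ran from 2.72 to 3.49 CPM before induction, from 3.11 to 3.78 CPM after 6 hours and from 2.45 to 3.61 CPM after 18 hours, ranges that overlap, and its part in the SKAP1 values was not tested. In SKMEL2 the sum was at most 0.859 CPM and CD3D, CD3G, CD2 and LCK had 0 counts in every library. Of the 4 neuronal markers, RBFOX3, SNAP25, SYT1 and STMN2, STMN2 had 0 counts in every library of both lines, and the sum was at most 1.8 CPM in SKMEL30 and 0.776 CPM in SKMEL2. In SKMEL30 that sum ran from 1.27 to 1.8 CPM before induction, from 1.09 to 1.61 CPM after 6 hours and from 0.989 to 1.31 CPM after 18 hours, and its part in the UNC5C values was not tested.

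A set of 90 genes that encode netrins, other ligands of UNC5 receptors, netrin receptors, their signalling and death pathways, partners of SKAP1 and the integrins it acts on was examined in the same fits. Of these 62 were tested in SKMEL2 and 63 in SKMEL30, and edgeR called 0 of them in either line at 6 or at 18 hours. DESeq2 called 0 too, but at 18 hours it gave no adjusted p for SKAP1 or UNC5C in either line. It therefore called neither gene at 18 hours, although its log2 fold changes in SKMEL30 were -2.47 and 1.53. Genes of the set may also have lacked an adjusted p, so the 0 calls of DESeq2 at 18 hours may not cover every gene tested by edgeR. With edgeR an unadjusted p under 0.05 was found for 2 genes at 6 hours and 6 at 18 hours in SKMEL2, and for 6 and 9 in SKMEL30. These are 3.23% and 9.68% of the tested genes of the set in SKMEL2, beside 3.37% and 4.65% of all genes tested, and 9.52% and 14.3% in SKMEL30, beside 6.44% and 9.14%. The rate of adjusted calls over all genes was 0.206% at 6 hours and 0.293% at 18 hours in SKMEL30. The median log2 fold change of the set in SKMEL30 was -0.0035 at 6 hours and -0.00155 at 18 hours, beside 0.000487 and 0.000659 for all genes.

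**Figure D3:**
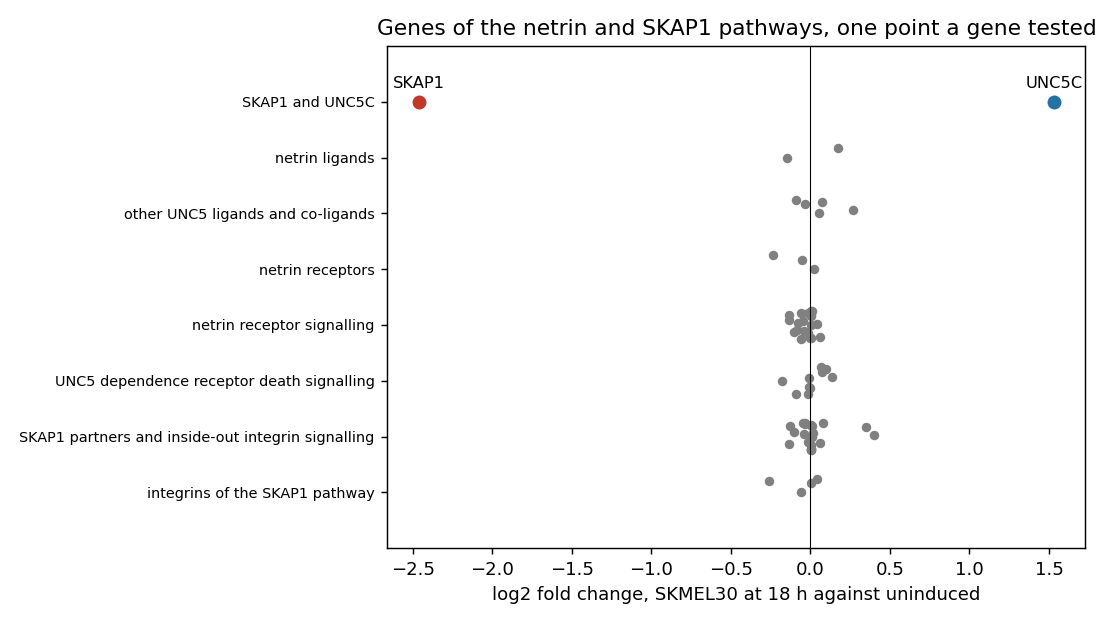
Log2 fold change in SKMEL30 at 18 hours against uninduced cells for SKAP1 and UNC5C (coloured) and for each tested gene of the 7 pathway lists (grey, 1 point per gene; the height within a row has no meaning). SKAP1 is at -2.46 and UNC5C at 1.53, and the tested genes of the lists run from -0.26 to 0.40, none of them called.

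Among the ligands, NTN1, which encodes netrin-1, was at 2.34 CPM in uninduced SKMEL30 cells and had log2 fold changes of -0.09 (SE 0.23) at 6 hours and -0.15 (SE 0.23) at 18 hours, with no call. NTN4 was at 0.487 CPM there. No netrin passed the filter in SKMEL2, where NTN1 was at 0.131 CPM and NTN4 at 0.0673 CPM in uninduced cells. Of the other ligands, FLRT2, a membrane protein that binds UNC5 receptors, was at 106 CPM in SKMEL2 and 13.8 CPM in SKMEL30. Its log2 fold change in SKMEL2 was -0.30 (SE 0.09) at 6 hours, with an adjusted p of 0.989 from edgeR.
UNC5C was the only one of the 4 UNC5 receptors to pass the filter in SKMEL30. There UNC5D had at most 1 count and UNC5B at most 9 counts in any library, and UNC5A was at 0 CPM in uninduced cells. DCC, the receptor for attraction to netrins, had 0 counts in each of the 9 SKMEL30 libraries, whereas its relative NEO1 was at 62.6 ± 1.94 CPM in uninduced cells (SD, n = 3). NEO1 had log2 fold changes of -0.04 (SE 0.04) at 6 hours and 0.02 (SE 0.04) at 18 hours and was not called. MCAM, a melanoma adhesion molecule that can also bind netrin-1, was at 190 ± 4.9 CPM in uninduced SKMEL30 cells (SD, n = 3), with log2 fold changes of -0.04 (SE 0.03) and -0.05 (SE 0.03), with no call. In SKMEL2, UNC5D was detected beside UNC5C, at 1.81 ± 0.493 CPM in uninduced cells (SD, n = 3), and differed after induction by -0.45 (SE 0.29) on the log2 scale at 6 hours and 0.29 (SE 0.27) at 18 hours, with no call.
All 20 genes for signalling from netrin receptors were tested in both lines with none called. Of all genes, 0.206% at 6 hours and 0.293% at 18 hours were called in SKMEL30, and 0.0124% at either time in SKMEL2. The actin regulator ENAH, the phosphatase PTPN11 and the GTPase RAC1 were the most abundant by mean CPM over all 18 libraries of both lines, and in SKMEL30 at 18 hours had log2 fold changes of 0.06 (SE 0.03), 0.01 (SE 0.03) and -0.04 (SE 0.02). Of the death pathway, 10 of 11 genes were tested in SKMEL30. DAPK1 was at 44.8 CPM in uninduced SKMEL30 cells, with log2 fold changes of -0.09 (SE 0.04) at 6 hours and -0.18 (SE 0.04) at 18 hours, with an adjusted p of 0.138 from edgeR at 18 hours. The PP2A subunits PPP2R1B and PPP2CA had at 18 hours log2 fold changes of -0.09 (SE 0.07) and -0.01 (SE 0.03), neither of which was called.

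Of the partners of SKAP1, SKAP2, its paralog outside T cells, was at 41.2 ± 0.715 CPM in SKMEL30 before induction, at 42.6 ± 1.33 CPM after 6 hours and at 41.4 ± 1.63 CPM after 18 hours (SD, n = 3 each), with a log2 fold change of 0.05 (SE 0.05) and 0.01 (SE 0.05) with no call. FYB1 was at 10.9 ± 0.102 CPM, then 12.3 ± 0.784 CPM and then 14 ± 0.675 CPM (SD, n = 3 each), so it differed from uninduced cells by 0.18 (SE 0.08) on the log2 scale at 6 hours and 0.35 (SE 0.07) at 18 hours, where the adjusted p was 0.0822 from edgeR. In SKMEL2 it was 0.04 (SE 0.14) and 0.29 (SE 0.14), with an adjusted p of 0.987 at 18 hours. LCP2 (SLP-76), an adaptor that binds FYB1, was detected in SKMEL2 at 17.1 ± 2.16 CPM (SD, n = 3) and was at 2 counts or fewer in each SKMEL30 library.
Talin (TLN1), the signalling enzyme PLCG1 and the kinase STK4 were the most abundant genes of this list by mean CPM over all 18 libraries, and in SKMEL30 at 18 hours had log2 fold changes of -0.04 (SE 0.03), 0.00 (SE 0.03) and 0.00 (SE 0.03). Over the 21 genes of the list tested in SKMEL30 the log2 fold changes ran from -0.416 to 0.989 at 6 hours. At 18 hours they ran from -0.137 to 0.402, and none was called at either time. Of the integrins and their ligands, 4 of 9 were tested in each line: ITGB1, ITGA4, ICAM1 and ICAM3, with no call. ITGAL and ITGB2, the chains of the leukocyte integrin LFA-1, were at 0.0604 and 0.037 CPM in uninduced SKMEL30 cells and did not pass the filter.

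None of the tested neighbours of SKAP1 and UNC5C was called in SKMEL30 at either time. Of all genes tested there, 0.206% were called at 6 hours and 0.293% at 18 hours, so no call among a few neighbours is no result about them. SNX11, a sorting nexin gene 9841 bases from SKAP1, and CBX1, a heterochromatin protein gene, had in SKMEL30 at 18 hours log2 fold changes of -0.02 (SE 0.06) and 0.02 (SE 0.04). On the other side, HOXB2 lies 97594 bases away and had log2 fold changes of -0.15 (SE 0.07) at 6 hours and -0.21 (SE 0.07) at 18 hours (adjusted p = 0.408 from edgeR), and HOXB1 had at most 1 count in any library. HOXB2, like SKAP1, was much lower in SKMEL2, at 0.118 ± 0.0306 CPM against 19.1 ± 0.551 CPM in uninduced cells (SD, n = 3 each). The noncoding genes SKAP1-AS1 and SKAP1-AS2 had at most 1 count in any library.
BMPR1B, a receptor of bone morphogenetic proteins that ends 4054 bases from UNC5C, had log2 fold changes of 0.09 (SE 0.07) at 6 hours and -0.01 (SE 0.07) at 18 hours in SKMEL30, and PDLIM5 of -0.10 (SE 0.03) and -0.06 (SE 0.03), with no call. UNC5C-AS1 had 0 to 11 counts per library in SKMEL30 and 7 to 22 in SKMEL2, against 78 to 317 and 19 to 38 for UNC5C. Its level in SKMEL30 was 0.117 ± 0.113 CPM before induction, then 0.246 ± 0.281 CPM and 0.427 ± 0.256 CPM after 6 and 18 hours (SD, n = 3 each), and the gene did not pass the filter there. In SKMEL2 its log2 fold change was 1.13 (SE 0.33) after 6 hours, with an adjusted p of 0.989 from edgeR. By RefSeq, UNC5C-AS1 lies 175 bases from UNC5C and does not overlap it. Among the noncoding genes that do overlap are LOC124900736 for UNC5C and LOC101927166 for SKAP1. The sources used here do not say whether reads were counted by strand, so reads of overlapping genes on opposite strands cannot be told apart. The deposited count of SKAP1 and that of UNC5C were whole numbers in all 18 libraries.

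The genes whose log2 CPM followed that of SKAP1 most closely over the 9 SKMEL30 libraries were SLC45A2, a melanosome transporter (Pearson r = 0.98), IMPACT (0.966), NUDT8 (0.959), C8orf33 (0.955) and MYOF (0.951). The lowest r were those of TMEM42 (-0.97), RPF1 (-0.963) and MAP4 (-0.958). Their changes were far smaller than that of SKAP1: at 18 hours SLC45A2 had a log2 fold change of -0.16 (SE 0.03) and MYOF one of -0.26 (SE 0.03). In SKMEL2 their log2 fold changes at 18 hours were 0.14 (SE 0.07) and -0.57 (SE 0.17) and neither was called.
For UNC5C the closest were C21orf91 (Pearson r = 0.986), PPP2R3B itself (0.985) and the mitochondrially encoded MT-ATP6 (0.984), with MTATP6P1, a nuclear copy that shares sequence with it (0.983), and MT-CYB (0.983). The lowest r were those of MT-RNR2 (-0.955), ABCB4 (-0.954) and AMACR (-0.948). C21orf91 in SKMEL30 was at 189 ± 2.46 CPM before induction, at 410 ± 8.71 CPM after 6 hours and at 420 ± 14.6 CPM after 18 hours (SD, n = 3 each), and rose in SKMEL2 too, from 102 ± 14.3 CPM to 249 ± 2.38 CPM at 18 hours, a log2 fold change of 1.29 (SE 0.10, adjusted p = 0.00017 from edgeR). These values of r were picked as the highest and lowest of 15025 genes, rest on 9 libraries in 3 groups, and are given without a test.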

How the data were processed

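RNA was measured by sequencing of 18 libraries of SKMEL2 and SKMEL30 cells, 3 in each of 6 groups, grouped by their titles. The authors made libraries with the KAPA mRNA HyperPrep kit, trimmed 43-base paired-end reads with Cutadapt, aligned them with STAR to GRCh38 with Ensembl release 86, and ran RSEM to obtain a count for each gene. The deposited values are RSEM's expected counts of 58051 genes without scaling, and 12.3% of them are not whole. A symbol was found for 55604 gene IDs (95.8%), and coordinates and promoter sequence are from RefSeq on GRCh38.p14.

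Expected counts were rounded. In R 4.3.3, edgeR 4.0.16 removed genes with low counts (filterByExpr), normalized by TMM, and fitted the 9 libraries of a line with glmQLFit, or all 18 for the levels of uninduced cells. Contrasts were tested with glmQLFTest, and calls required a p under 0.05 after Benjamini-Hochberg adjustment over all genes tested. The SE, which is not given where F is near 0, is the log2 fold change divided by the square root of F. CPM use 1 normalization over 18 libraries, with a prior count of 1 where logarithms were taken. Totals of 13402645 to 22383470 counts set the precision, and SKAP1 and UNC5C had 0 to 317 counts per library. Replicate pairs had a chi-square per degree of freedom of 2.08 to 18.6, so that none agreed within counting noise.

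The 2 genes, the pathway and marker lists and the tests were chosen with earlier results of these data known. Named genes are the 2 genes, PPP2R3B, their neighbours, list genes that were called or among the 3 most abundant of a list, and those with the highest 5 and lowest 3 values of r. CCND1, which is in none of the lists, was named after its values were seen. So were FLRT2, FYB1, DAPK1 and other list members outside that rule. Same-numbered replicates did not deviate together (correlations of -0.12 to 0.15 in SKMEL2 and -0.02 to 0.13 in SKMEL30), so replicate numbers were not used as a block. Alternatives were DESeq2 1.42.0, RLE factors, other filters, other sets of libraries, the block, and leaving out each library. The steps were tested on simulated data.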

Additional observations from a re-analysis of the deposited data

How the results depend on the processing

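Every alternative kept the direction of SKAP1 and UNC5C in SKMEL30, with log2 fold changes within the spread of replicates. DESeq2 called neither at 18 hours. Without 1 library in turn SKAP1 ran from -1.29 to -1.09 at 6 hours and from -2.61 to -2.35 at 18 hours, and UNC5C from 1.29 to 1.37 and from 1.41 to 1.60. Before induction each gene was lower in SKMEL2 in every fit that held it (no test). In SKMEL2 the log2 fold change of UNC5C at 6 hours turned from 0.11 to -0.18 (adjusted p = 0.977 from edgeR), and the difference of 6 induced from 3 uninduced libraries to -0.0447 CPM (exact permutation p = 0.821), without replicate 3 of the uninduced cells. Without 1 library it ran from -0.18 to 0.43 at 6 hours, and the difference in CPM from -0.0447 to 0.528. At 18 hours, from 0.37, it ran from 0.09 (without uninduced replicate 3) to 0.69 (without uninduced replicate 1), and was 0.24 without replicate 2 at 18 hours. The SKAP1 difference in SKMEL2 ran from -0.176 to -0.114 CPM (exact permutation p = 0.0357 to 0.107) and had p = 0.0357 without replicate 1 at 6 hours. Its log2 fold change at 6 hours, from -0.64, ran from -0.99 (without replicate 1 at 6 hours) to -0.44 (without replicate 2 at 6 hours) in the 18-library fit, and that at 18 hours ran from -5.22 to -1.51, the lowest without replicate 3 at 18 hours, which leaves that group with 0 counts and the value to the prior count.

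Counts of genes called moved more, and the cause was not tested. With no filter on low counts edgeR called 158 genes at 6 hours, 168 at 18 hours and 135 between the times in SKMEL2, and 321, 359 and 197 in SKMEL30, against 2, 2, 0, 31, 44 and 3. Of the 90 pathway genes this added 1 in SKMEL2 at 6 hours (FLRT2, log2 fold change -0.31, adjusted p = 0.016) and 1 in SKMEL30 at 18 hours (FYB1, 0.35, adjusted p = 0.0349). DESeq2 called 7, 16 and 3 genes in SKMEL2, and 69 at 18 hours and 12 between the times in SKMEL30. A single fit of all 18 libraries called 6 and 7 genes in SKMEL2 at 6 and 18 hours, and 5, 9 and 0 in SKMEL30. With only the 6 libraries compared 9 were called in SKMEL2 at 18 hours and 0 in SKMEL30 between the times, and with at least 10 counts in every library 5 in the latter. Without 1 library, counts ran in SKMEL2 from 2 to 5 at 6 hours (5 without replicate 3 at 6 hours) and from 0 to 1 between the times (1 without replicate 2 at 6 hours). In SKMEL30 they ran from 16 to 33 at 6 hours (16, 20 and 17 without uninduced replicates 1 and 3 and replicate 3 at 6 hours), from 25 to 30 at 18 hours (25, 29, 29 and 27 without uninduced replicates 1, 2 and 3 and replicate 3 at 18 hours), and from 0 to 5 between the times (5 without replicate 1 at 6 hours, 0 without replicate 3 at 6 hours or replicate 2 or 3 at 18 hours). Between the times SKAP1 was not called in 5 of the 6 fits without 1 library, nor in the 2 other fits that made 0 calls, with log2 fold changes of -1.40 to -1.18 without 1 library. The replicate block moved the calls to 7 in SKMEL2 at 18 hours and to 16 in SKMEL30 between the times, moved no other count by over 1.5 times, and left the calls of SKAP1 and UNC5C as they were. Of 348 values recomputed, 309 kept their direction and side of the threshold or stayed within the spread. SKAP1 could not be fitted in SKMEL2 with at least 10 counts in every library.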
